A study of Mus musculus with 30 samples.

Results

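The genes described here lie on the distal part of mouse chromosome 4, around the circadian clock gene Per3. Their probes span positions 148480385 to 155603532 of assembly mm9 and are all probes of the interval except 25 set aside by gene name, among them those of Per3 itself, Prdm16, Slc2a5, Car6, Clstn1 and the TNF receptor genes. This rule kept 181 probes of 126 gene names, out of 206 probes of 141 names in the interval and 41174 probes of 28093 names on the whole array. A pair of the 181 probes were filed under other identifiers but carry the current names Clstn1 and Tnfrsf9, so counts are also given for the other 179. The interval was drawn around genes that had already been reported to differ in these samples, so the share of its genes that differ is not independent evidence.

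The animals were male, adult Per3-/- mice and their WT littermates on a C57Bl/6J background, all exposed to 17 cycles of 3.5 h light and 3.5 h dark and killed in the second hour of the last light period. RNA came from a block of the hypothalamus cut around the optic chiasm (8 WT and 8 Per3-/- mice) and from the whole eye (7 WT and 7 Per3-/- mice), with 1 array of 60-base probes per mouse and tissue. The knockout is carried in the whole body, and nothing in the light schedule differed between the genotypes, since all mice were on it. The knockout allele and the alleles of its neighbours are inherited together, so the loss of Per3 and any other difference of the linked segment cannot be told apart in this design.

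Per3 encodes a period protein. Period proteins join cryptochromes in the arm of the molecular clock that represses the activators CLOCK and BMAL1, which bind a DNA element called the E-box. The hypothalamus holds the suprachiasmatic nucleus, the central clock that receives light input from the retina. The neighbours of Per3 described here are otherwise unrelated by function and include chromatin and RNA-processing factors, mitochondrial proteins, membrane-traffic proteins and signalling genes.

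Signals are given as log2 of the background-subtracted intensity relative to log2 of the 75th percentile of that array, which therefore sits at 0. Differences are Per3-/- minus WT on this log2 scale, with standard errors (SE) and p-values from limma, with Benjamini-Hochberg adjustment across the 41174 probes. The 75th percentile lay between 1133 and 2207 intensity units, and between 67.9% and 80.7% of the probes of an array were well above background. The Per3 probe lay between -3.79 and -3.28 on the hypothalamic WT arrays and between -4.21 and -3.59 on the Per3-/- arrays (difference -0.51, adjusted p = 0.0657), and its difference in the eye was -0.45 (adjusted p = 1). Whether this probe lies in the deleted part of the gene is not given in the sources used here. Both tissues expressed their own markers, with 10 of 10 hypothalamic genes and 8 of 8 eye genes above background on every array of their tissue. Anterior pituitary genes stood apart on 2 hypothalamic arrays, with a summed log2 level of 10.2 in Per3-/- mouse 1 and 5.61 in WT mouse 5 against 2.06 to 3.64 on the other 14. Counts for the hypothalamus are therefore also given without both arrays.

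The probes that the results below turn on are identified by the first 30 of their 60 bases, written 5′ to 3′ as the array files give them. They are shown because Phf13, Dvl1 and Rnf207 have 2 probes each, unlike in their differences for Phf13 and Rnf207 and alike for Dvl1, and because the single probes of AI428898, Faap20, Atad3aos and Cptp were called in the hypothalamus.
Phf13 A_52_P632397, minus strand, chr4:151364485-151364544: ctcccacattgtcttaagcaccaaaggagc
Phf13 A_51_P446012, minus strand, chr4:151363811-151363870: ttcccgtgggctttggccaggccagacaca
Dvl1 A_52_P234958, plus strand, chr4:155233151-155233210: cacctagccactgtctcagtctcagtggtg
Dvl1 A_51_P504503, plus strand, chr4:155230608-155230751: tgctactatgtctttggcgacctgtgcagt
Rnf207 A_51_P142594, minus strand, chr4:151689892-151690037: cagaagtgtacgctgcattcggagccgtac
Rnf207 A_52_P213722, minus strand, chr4:151681670-151682950: gcaggacagatccaggatgcaccactgaga
AI428898 A_51_P405956, minus strand, chr4:155186275-155186334: ccacgtgcacgacgttacaccgcgacttag
Faap20 A_52_P539361, plus strand, chr4:154630400-154630459: tgagtattggctccttctggttttgttcat
Atad3aos A_51_P167660, plus strand, chr4:155136284-155136343: aaccggttgagttcacagaattgtttggac
Cptp A_51_P211488, minus strand, chr4:155239800-155239859: gcccttgtctccttggaaatggaaactatg
All positions are on mm9. The intervals of both Rnf207 probes and of Dvl1 A_51_P504503 are longer than the probe, so their bases are not contiguous in the genome. Which exon or untranslated region each probe lies in was not determined here.

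In the hypothalamus of Per3-/- mice, 7 of the 181 probes passed an adjusted p of 0.05, which is 3.87% of them, against 0.0413% of all probes on the array. Of these, 6 fell, namely AI428898, Atad3aos, Phf13, Clstn1, Faap20 and Dvl1 (0.034% of all probes fell), and 1 rose, Cptp (0.00729% of all probes rose). Of the 179 probes without the names Clstn1 and Tnfrsf9, 6 passed. The tissue is a mixture of cell types, as is the eye, so fewer cells of a type and less RNA per cell cannot be told apart in these values. The same 7 probes were those in which no Per3-/- array overlapped a WT array, as was the case for 0.0437% of all probes. Without the 2 arrays that were high in pituitary markers, 6 probes passed, since Dvl1 (adjusted p = 0.0622) and Cptp (adjusted p = 0.148) were lost and Klhl21 (adjusted p = 0.0268) was gained.

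Phf13, a PHD-finger protein that binds methylated histone H3 at active promoters, fell by its probe A_52_P632397. The 8 WT hypothalami lay between -1.40 and -1.14 (median -1.34) and the 8 Per3-/- hypothalami between -2.30 and -1.78 (median -1.96). The groups did not overlap, and the difference was -0.68 (SE 0.07, adjusted p = 0.000304), which is 1.60-fold. It was below 0 within each of the 4 slides, from -0.82 to -0.55.

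AI428898, a transcript known only by its sequence, showed the widest separation. WT hypothalami ranged from -2.51 to -1.73 (median -1.95), and Per3-/- hypothalami from -4.13 to -3.16 (median -3.52). Every Per3-/- mouse was below every WT mouse, with a difference of -1.46 (SE 0.15, adjusted p = 0.000559), or 2.74-fold, the only one past 2-fold among the members above background throughout a genotype in this tissue.

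Faap20, a subunit of the Fanconi anaemia core complex that acts in repair of DNA crosslinks, ran from 1.74 to 1.98 (median 1.91) in WT and from 1.38 to 1.67 (median 1.42) in Per3-/- hypothalami. Its difference was -0.41 (SE 0.05, adjusted p = 0.00335), and the ranges did not touch. The probe filed without a gene symbol that now carries the name Clstn1, a synaptic membrane protein, lay between 6.74 and 7.06 (median 6.86) in WT and between 6.30 and 6.47 (median 6.44) in Per3-/- mice (difference -0.47, SE 0.05, adjusted p = 0.000304). It is the brightest of the called probes and the only one called in both tissues.

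Atad3aos is transcribed antisense to Atad3a, which encodes an ATPase of the inner mitochondrial membrane. Its probe ranged from -4.96 to -4.23 (median -4.45) in WT and from -6.18 to -5.00 (median -5.44) in Per3-/- hypothalami. The difference was -0.92 (SE 0.15, adjusted p = 0.0342), with 7 of 8 Per3-/- arrays above background. With normexp background correction the difference was -0.51 and the call was lost (adjusted p = 0.276). Atad3a itself, by its brightest probe, differed by -0.04 (SE 0.05).

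Dvl1, the Dishevelled protein that relays Wnt signals from Frizzled receptors, ran from 2.39 to 2.65 (median 2.53) in WT and from 2.15 to 2.38 (median 2.25) in Per3-/- hypothalami by its probe A_52_P234958. The ranges nearly met, and the difference was -0.28 (SE 0.05, adjusted p = 0.0392). Cptp, which moves ceramide-1-phosphate between membranes, was the called probe that rose. Its WT hypothalami lay between -0.02 and 0.57 (median 0.10), and its Per3-/- hypothalami lay above all of them, between 0.65 and 1.02 (median 0.78). The difference was 0.59 (SE 0.09, adjusted p = 0.0304).

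For each of these 7 probes a two-sided exact permutation test over the arrays gave p = 0.000155, the smallest value that 8 against 8 arrays allow. This value follows from the lack of overlap between the genotypes described above, so it is not separate evidence for the calls. It is also not adjusted for the number of probes on the array. With the replicate number as a block, only the call of Clstn1 remained. Dvl1, Cptp and Atad3aos then had adjusted p of 0.527, 0.605 and 0.953 from limma. The calls of Phf13, AI428898, Faap20 and Clstn1 held when any 1 of the 16 arrays was left out. Those of Dvl1, Cptp and Atad3aos were lost on leaving out 14, 12 and 12 of the 16 arrays, with adjusted p up to 0.117, 0.0951 and 0.098 from limma, and were also lost with the slide as a block (adjusted p = 0.0707, 0.116 and 0.116). The call of Dvl1 was lost too with the array median as the scale and with normexp (adjusted p = 0.0851 and 0.0732), that of Cptp with the array median and the methods' t-test (adjusted p = 0.0694 and 0.0546), and that of Atad3aos with the methods' t-test (adjusted p = 0.0688).

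**Figure D1:**
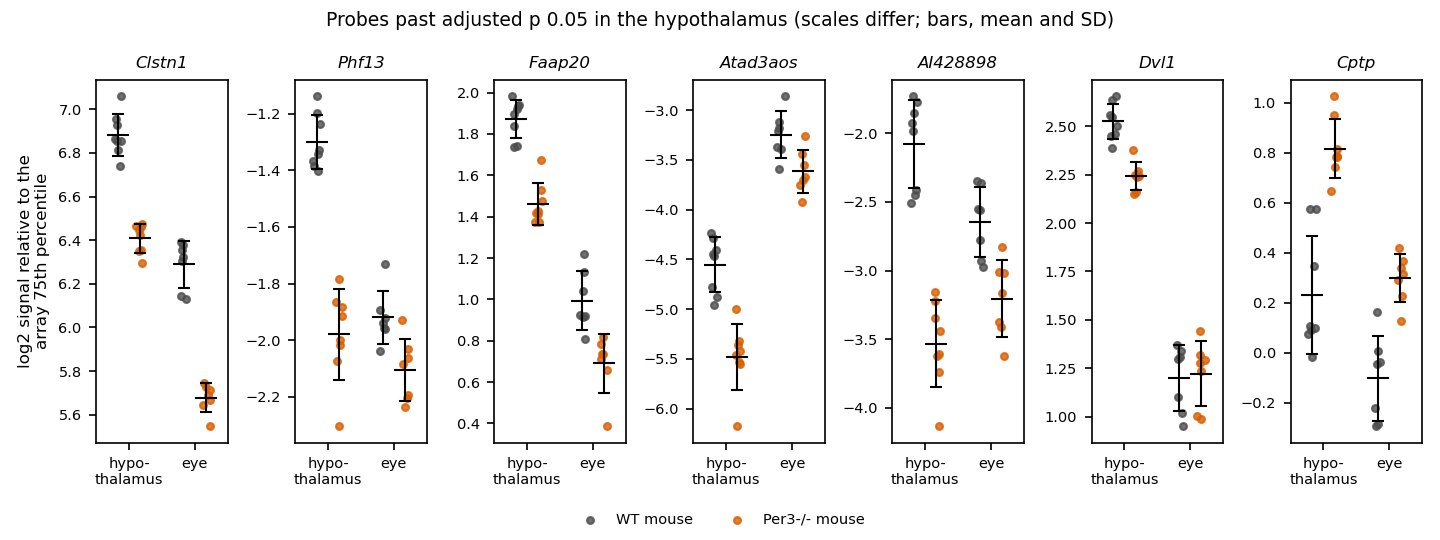
Log2 signal relative to the array's 75th percentile (vertical axis, a separate scale per panel) of the 7 probes called in the hypothalamus, with 1 point per mouse and bars for mean and SD, in the hypothalamus (n = 8 per genotype) and the eye (n = 7 per genotype). In the hypothalamus the WT and Per3-/- points do not overlap in any panel, whereas in the eye they overlap in every panel except Clstn1.

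The threshold of an adjusted p is strict when few of 41174 probes differ, so the unadjusted p of 0.01 was used to describe the rest. It was passed in the hypothalamus by 32 probes of 29 genes, 17.7% of the members against 0.476% of all probes. Of these, 21 were lower in Per3-/- mice (0.279% of all probes) and 11 were higher (0.197% of all probes). Among the 151 members above background on every hypothalamic array, 30 passed (19.9%), against 0.407% of the probes outside the interval that met the same condition. Without the 2 arrays high in pituitary markers, 28 members passed. The members did not shift as a whole, with a median difference of 0.00029 against -0.01 for all probes, and 90 differences below and 91 above 0. Their size was larger, with a median absolute difference of 0.08 among members above background against 0.05 outside the interval.

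Among probes below the adjusted threshold, Klhl21 and Nphp4 came closest. Klhl21, a substrate adaptor of a cullin ubiquitin ligase, ranged from -0.57 to -0.26 in WT and from -0.86 to -0.50 in Per3-/- hypothalami, with 7 of 8 Per3-/- mice below every WT mouse (difference -0.32, SE 0.06, adjusted p = 0.0657). Nphp4, a protein of the ciliary transition zone, ranged from -1.24 to -1.07 and from -1.61 to -1.20 (difference -0.32, SE 0.05, adjusted p = 0.0657). These values stand just outside the threshold, as those of Dvl1 (adjusted p = 0.0392) and Atad3aos (adjusted p = 0.0342) stand just inside it. Klhl21 passed when probes were filtered on background, under quantile normalization, with the array median as the scale and without the 2 arrays high in pituitary markers (adjusted p = 0.0277, 0.0452, 0.0226 and 0.0268). Nphp4 passed under the first 2 of these (adjusted p = 0.0277 and 0.0452).

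Next in order of p were Chd5, a neuronal chromatin remodeller (difference -0.36, SE 0.07), Vwa1, an extracellular matrix protein (-0.23, SE 0.05), and a probe of Pusl1, a pseudouridine synthase relative (-0.20, SE 0.05). Camta1, a calmodulin-binding transcription activator, differed by -0.23 (SE 0.05), Aurkaip1, a protein of the mitochondrial ribosome, by -0.20 (SE 0.05), and Plch2, a neuronal phospholipase C, by -0.26 (SE 0.06). Higher values in Per3-/- mice were found for Acap3, which activates the GTPase of ARF proteins (0.18, SE 0.04), Mxra8, a cell-surface protein (0.47, SE 0.12), Cfap74, a ciliary protein (0.41, SE 0.10), and Ccnl2, a cyclin that acts in splicing (0.26, SE 0.07). None of these 10 passed the adjusted threshold. In each of them between 5 and 7 of the 8 Per3-/- mice lay beyond every WT mouse. Such separation goes with their choice by p and is not separate evidence.

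In the eye 1 member passed an adjusted p of 0.05 (0.552% of the members and 0.0194% of all probes), the Clstn1 probe, and none of the other 179 did. It fell from a WT range of 6.13 to 6.39 to a Per3-/- range of 5.55 to 5.75, a difference of -0.61 (SE 0.06, adjusted p = 0.000905). With the replicate number as a block, in a fit that rests on 6 mice of each genotype, the difference was -0.57 and the adjusted p was 0.338, and with the array median as the scale it was 0.0549. By an unadjusted p of 0.05 in limma, 29 of the other 179 probes passed (16.2%, against 1.8% of all probes).

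At the unadjusted p of 0.01 the eye gave 17 probes of 15 genes, 9.39% of the members against 0.333% of all probes. Of these, 8 were lower (0.168% of all probes) and 9 higher (0.165% of all probes) in Per3-/- mice. Among the 156 members above background on every eye array, 16 passed (10.3%), against 0.223% outside the interval. This count fell to 7 with the array median as the scale and to 10 with another background correction. No overlap between the genotypes was seen for 3 members, Clstn1, a probe of Dnajc11 and a probe of Slc25a33, against 0.0704% of all probes.

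Rnf207, which encodes a RING-finger protein that modulates a cardiac potassium channel, gave the largest eye difference. Its probe A_51_P142594 ranged from -4.36 to -3.08 (median -3.80) in WT eyes and from -3.21 to -1.74 (median -2.70) in Per3-/- eyes. In 6 of 7 Per3-/- eyes it was above every WT eye, and the difference was 1.20 (SE 0.24, unadjusted p = 0.000209, adjusted p = 0.537). The other probe, A_52_P213722, was brighter and lay between 0.13 and 0.78 (median 0.51) in WT and between 0.57 and 1.60 (median 1.04) in Per3-/- eyes (difference 0.63, SE 0.16, unadjusted p = 0.00126). In the hypothalamus the first probe did not rise well above background in any of the 8 WT mice and did so in 2 of 8 Per3-/- mice, so no fold is given there. The second was above background throughout the hypothalamus and differed by 0.07 (SE 0.06).

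Cptp, called in the hypothalamus, ranged from -0.29 to 0.16 (median -0.05) in WT eyes and from 0.13 to 0.42 (median 0.31) in Per3-/- eyes (difference 0.40, SE 0.08, unadjusted p = 0.000205, adjusted p = 0.537), with 6 of 7 Per3-/- eyes above every WT eye. Dnajc11, a chaperone of the mitochondrial inner membrane organising system, ran by its brighter probe from -0.01 to 0.26 in WT and from -0.22 to -0.05 in Per3-/- eyes without overlap (difference -0.25, SE 0.06). Its other probe, also above background, differed by 0.04 in the eye. Slc25a33, a mitochondrial carrier of pyrimidine nucleotides, was higher by both of its probes (0.33, SE 0.09, and 0.36, SE 0.09), and the 7 Per3-/- eyes (4.60 to 4.97) lay above the 7 WT eyes (4.10 to 4.58) by the first. Its hypothalamic differences were 0.00274, a value that changes sign when some single arrays are left out, and 0.02. Neither Dnajc11 nor Slc25a33 passed the adjusted p of 0.05 in the eye.

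The other eye probes chosen by their p were lower for Plekhg5, a guanine nucleotide exchange factor (-0.25, SE 0.07), Morn1 (-0.26, SE 0.08), Ssu72, a phosphatase of RNA polymerase II (-0.36, SE 0.12), Ctnnbip1, an inhibitor of beta-catenin (-0.22, SE 0.08), and Rer1, which returns proteins from the Golgi to the endoplasmic reticulum (-0.17, SE 0.06). They were higher for Ints11, the endonuclease of the Integrator complex (0.24, SE 0.06), Ccnl2 (0.28, SE 0.08), B3galt6, a galactosyltransferase of proteoglycan synthesis (0.20, SE 0.06), Mmp23, a membrane metalloprotease (0.22, SE 0.08), and the transcript AK036293 (1.06, SE 0.31). The list goes past the unadjusted p of 0.01 in limma, which Ctnnbip1, Rer1 and Mmp23 did not pass in the eye. AK036293 was above background on 5 of 7 WT and 7 of 7 Per3-/- eye arrays. All of these had an adjusted p of 1.

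**Figure D2:**
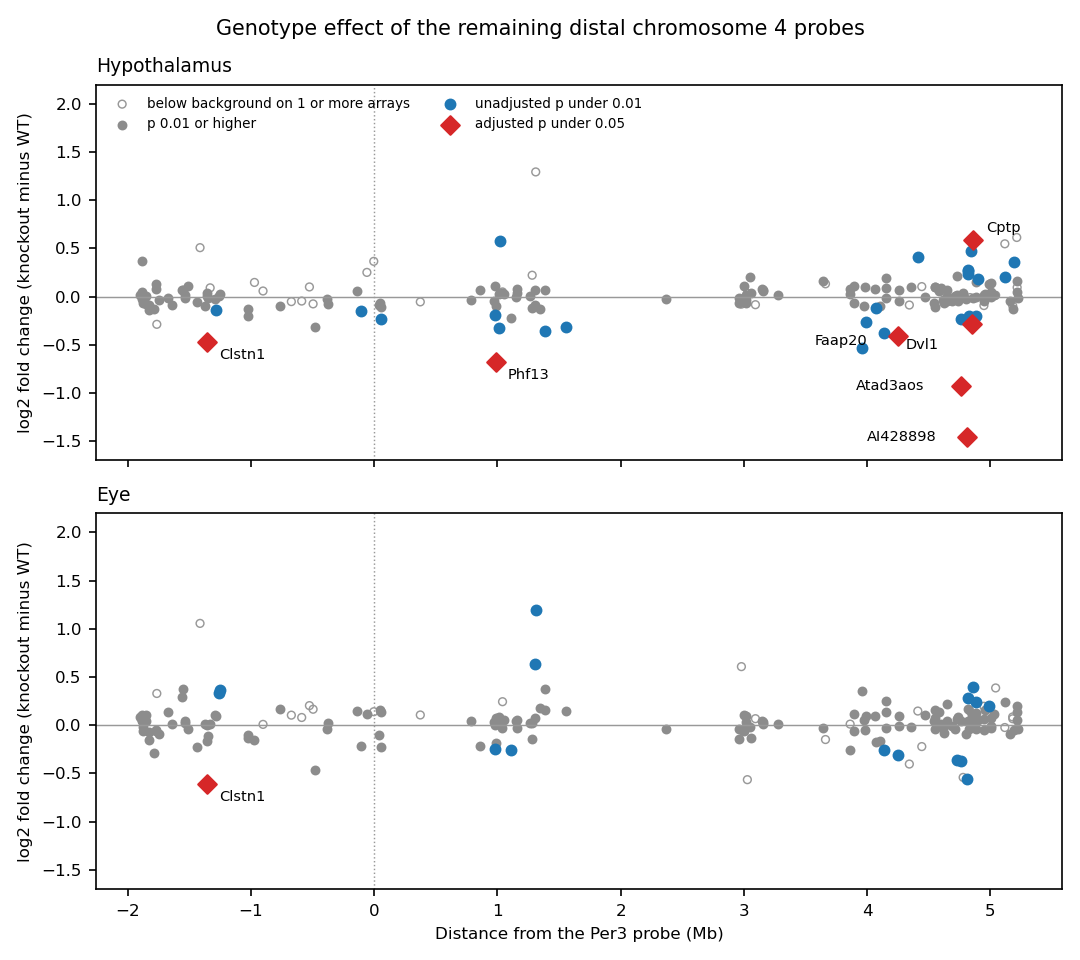
Difference between Per3-/- and WT (log2, vertical axis) of each of the 181 probes against its distance from the Per3 probe in Mb (horizontal axis, dotted line at 0), in the hypothalamus and the eye. Red diamonds passed an adjusted p of 0.05, blue points an unadjusted p of 0.01, and open circles are the other probes not above background on every array, whatever their unadjusted p. The only called probe before Per3 is that of Clstn1, whose gene name is among those set aside. Of the 7 hypothalamic ones, 5 sit 4 to 5 Mb after Per3.

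Along the chromosome, 50 member probes lie before Per3 (nearer the centromere) and 131 after it. In the hypothalamus 3 of the 50 (6%) and 29 of the 131 (22.1%) passed the unadjusted p of 0.01, against 0.476% of all probes. In the eye 4 (8%) and 13 (9.92%) did, against 0.333% of all probes. The genes nearest to Per3 were not those with the largest differences. Before it come Uts2, the urotensin peptide, which was not above background on any hypothalamic array, Tnfrsf9, which was near background in the hypothalamus (0.12 in the eye, with a sign that depends on single arrays), Park7 and Errfi1, an inhibitor of the EGF receptor (0.06 and 0.15). After it come Vamp3, a vesicle SNARE (hypothalamic differences of -0.08 and -0.07 by its 2 probes, eye differences of -0.10 and 0.16), Camta1 (-0.23 and -0.22 by its brightest hypothalamic probe), 4930589P08Rik, which was below background on every array, and 9230110K08Rik (0.07 and -0.21).

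Park7, which encodes DJ-1, a protein that protects cells from oxidative stress, lies 0.108 Mb from the Per3 probe. It ranged from 5.12 to 5.27 (median 5.18) in WT and from 4.98 to 5.13 (median 5.04) in Per3-/- hypothalami, and 7 of 8 Per3-/- mice lay below every WT mouse. The difference was -0.15 (SE 0.04, unadjusted p = 0.000526, adjusted p = 0.693). In the eye its values were 5.21 to 5.62 in WT and 4.83 to 5.49 in Per3-/- mice (difference -0.21, SE 0.09, unadjusted p = 0.0407), with overlapping ranges.

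The stretch from 4 to 5 Mb after Per3 held 55 of the probes and 17 of the 32 that passed the unadjusted p of 0.01 in the hypothalamus. Of its 50 probes above background in the hypothalamus, 16 passed (32.0%), 9 lower and 7 higher. Lower and higher genes are interleaved there, with Atad3aos, Vwa1, AI428898, Aurkaip1 and Dvl1 lower and Ccnl2, Mxra8, Cptp and Acap3 higher in Per3-/- hypothalami. In the eye, 9 of its 49 probes above background passed. From 2 to 3 Mb none of the 4 probes above background passed in either tissue.

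**Figure D3:**
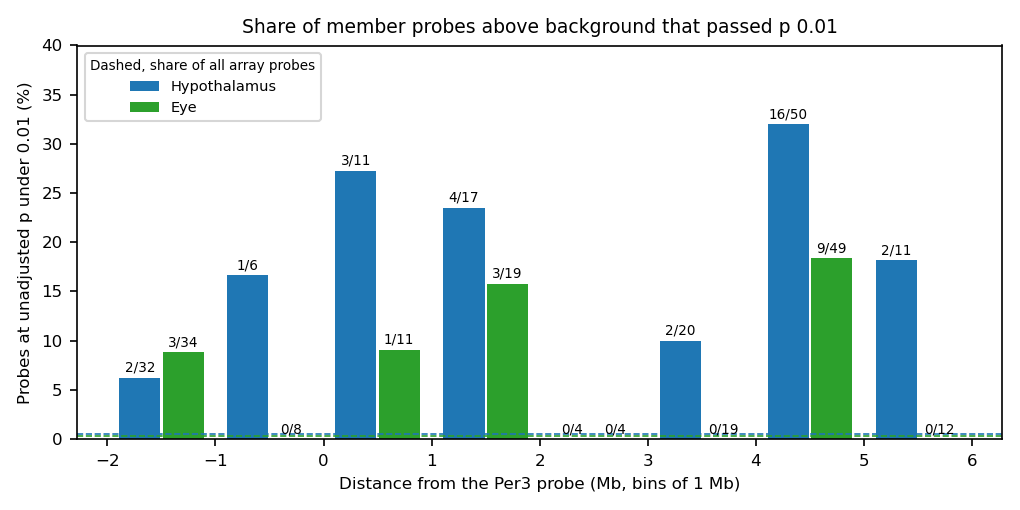
Share of member probes above background on every array that passed an unadjusted p of 0.01 (percent, vertical axis) in bins of 1 Mb from the Per3 probe (horizontal axis), for the hypothalamus and the eye, with the number passed over the number measured above each bar. Dashed lines mark 0.476% and 0.333%, the shares of all array probes, and the tallest bars stand at 4 to 5 Mb (16 of 50 and 9 of 49), while bins of 4 to 8 probes carry little weight.

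The tissues shared part of these differences. Of the probes that passed the unadjusted p of 0.01, 9 passed in both tissues, which is 28.1% of the 32 in the hypothalamus and 52.9% of the 17 in the eye, and all 9 had the same sign. These were Clstn1, Dnajc11, Rnf207 A_51_P142594 (near background in the hypothalamus), Morn1, Faap20, Atad3aos, AI428898, Ccnl2 A_51_P386304 and Cptp. The eye difference of Atad3aos ran from -0.45 to -0.04 across the processing alternatives and was above 0 within 1 of 4 slides. Over the 147 probes above background throughout both tissues, the differences had a Pearson r of 0.42 and a Spearman rank correlation of 0.29 across probes, which are not independent and come from the same mice, and 86 had the same sign. The overlap, the correlations and the shared signs were not computed for the rest of the array. Whether the members share more between tissues than other probes is therefore not known.

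A test of the tissue difference in 1 fit of the 30 arrays, in which mouse was the random block, called 0 members at an adjusted p of 0.05 by limma (0.00486% of all probes), 29 at an unadjusted p of 0.05 (2.2% of all probes) and 20 at 0.01 (11.05% of the members, 0.384% of all probes). Of the 20, 18 had the eye difference above that of the hypothalamus. Phf13 A_52_P632397 was the first of them. Its eye values were -2.04 to -1.73 in WT and -2.24 to -1.93 in Per3-/- mice, a difference of -0.19 (SE 0.07) against -0.68 in the hypothalamus, so the tissues differed by 0.49 (SE 0.09, unadjusted p = 8.09e-06, adjusted p = 0.111). With normexp the eye difference was -0.01. It passed when mouse 8 of the Per3-/- group was left out.

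AI428898 likewise differed less in the eye, from -2.98 to -2.35 in WT and from -3.63 to -2.83 in Per3-/- eyes (difference -0.56, SE 0.14), with a tissue difference of 0.90 (SE 0.21, unadjusted p = 0.000178, adjusted p = 0.813) and an eye difference of -0.26 with normexp. Faap20 did not show such a gap, with an eye difference of -0.30 (SE 0.08) and a tissue difference of 0.11 (SE 0.09, unadjusted p = 0.232). Dvl1 A_52_P234958 was 0.95 to 1.37 in WT and 0.99 to 1.44 in Per3-/- eyes, with an eye difference of 0.02 (SE 0.09) that changes sign between processing alternatives and a tissue difference of 0.31 (SE 0.10, unadjusted p = 0.00353). Some probes had opposite signs in the tissues. Chd5 A_51_P275174 differed by -0.36 in the hypothalamus and 0.38 in the eye (tissue difference 0.74, unadjusted p = 7.24e-05, adjusted p = 0.596). Nphp4 differed by -0.32 and 0.14 (0.46, unadjusted p = 8.71e-05) and Hes5, a transcription factor downstream of Notch, by -0.53 and 0.36 (0.89, unadjusted p = 0.000478). All 3 Chd5 probes were above 0 in the eye (0.16 to 0.38), and only its brightest, A_52_P18299, was so in the hypothalamus (0.07). For the eye alone, limma gave an unadjusted p of 0.145 for Nphp4 (SE 0.09) and 0.0393 for Hes5 (SE 0.16). An opposite response of these genes in the eye is therefore not established.

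**Figure D4:**
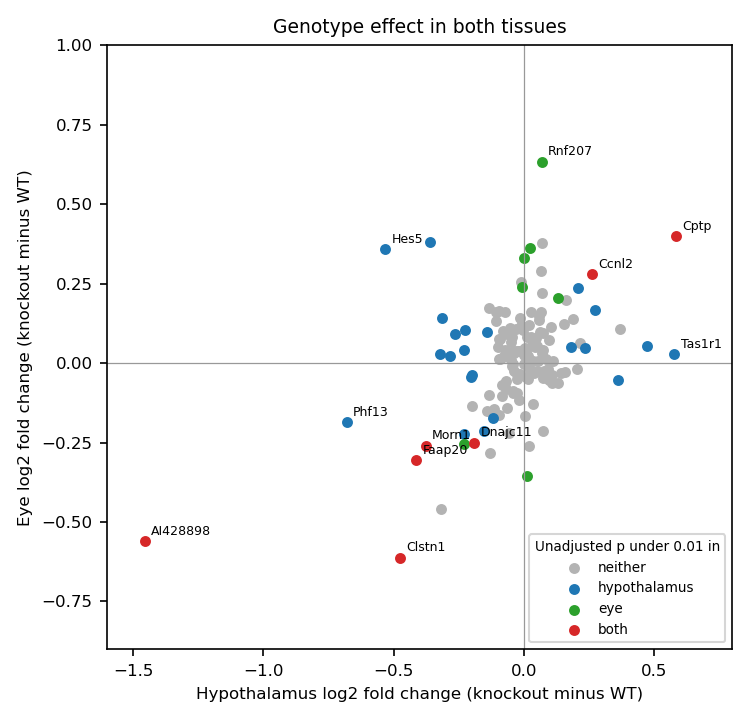
Difference between Per3-/- and WT in the eye (vertical axis, log2) against that in the hypothalamus (horizontal axis, log2) for the 147 member probes above background throughout both tissues, coloured by the tissue in which the unadjusted p was under 0.01. Clstn1, AI428898, Faap20, Morn1 and Dnajc11 lie in the lower left and Cptp and Ccnl2 in the upper right, while Hes5 and Chd5 (unlabelled, beside Hes5) lie in the upper left.

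For 41 gene names the array holds several probes. In the hypothalamus 33 of them had every probe above background, and the differences of a gene's probes spanned a median of 0.08. In 10 of the 33 genes at least 1 probe passed the unadjusted p of 0.01, and in 2 every probe did, Ccnl2 (3 probes, 0.24 to 0.27) and Dvl1 (-0.28 and -0.22). In the eye, 37 genes had every probe above background with a median span of 0.11, 6 had a probe that passed, and in 2 every probe passed, Rnf207 and Slc25a33. No gene had probes past this p in opposite directions in either tissue. These counts were made for the members only, so no share over the whole array stands beside them. A gene with more probes also has more chances for 1 of them to pass.

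The widest span among these 33 genes in the hypothalamus, 0.58, was that of Phf13. Its probe A_51_P446012, which lies closer to the 3′ end of the gene and is the brighter one, ranged from 1.72 to 2.21 (median 1.85) in WT and from 1.66 to 1.89 (median 1.80) in Per3-/- hypothalami. These ranges overlapped, and the difference was -0.09 (SE 0.06, unadjusted p = 0.144), with 0.08 (SE 0.07) in the eye. Chd5 followed (-0.36, -0.13 and 0.07 by its 3 probes), then Plch2 (-0.26 and 0.10) and Pusl1 (-0.20, unadjusted p = 0.000376, and 0.15, unadjusted p = 0.0117). The second probe of Dvl1, A_51_P504503, ranged from -1.38 to -0.82 in WT and from -1.52 to -1.13 in Per3-/- hypothalami, which overlapped (difference -0.22, SE 0.07, unadjusted p = 0.00785).

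**Figure D5:**
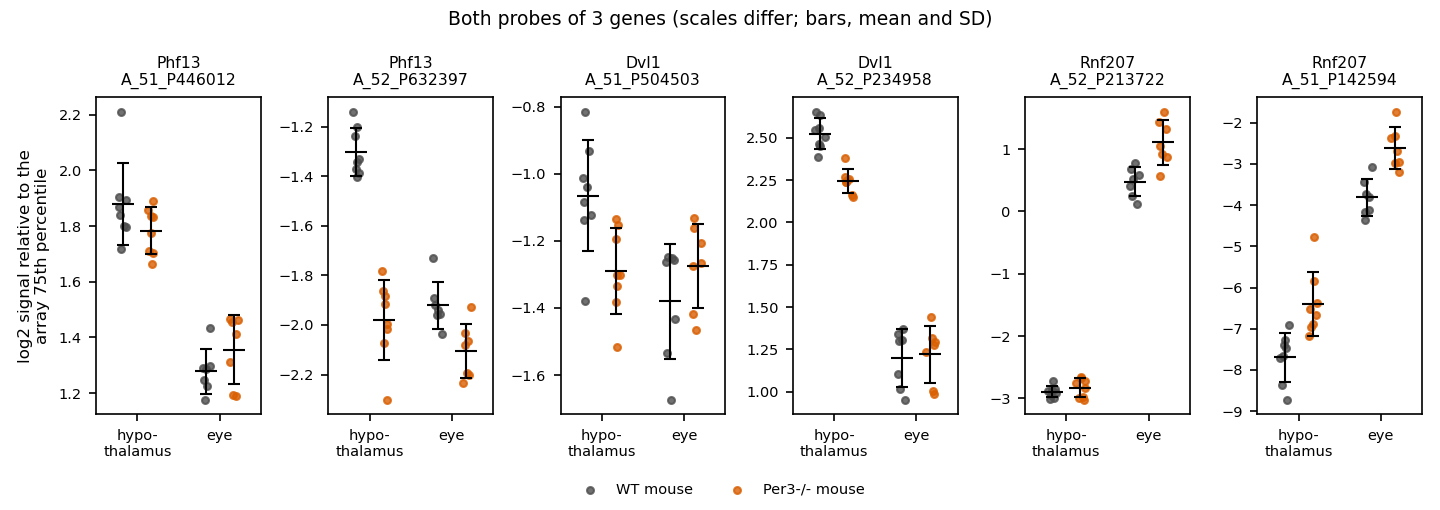
Log2 signal relative to the array's 75th percentile (vertical axis, a separate scale per panel) of both probes of Phf13, Dvl1 and Rnf207, with 1 point per mouse and bars for mean and SD, in the hypothalamus (n = 8 per genotype) and the eye (n = 7 per genotype). Phf13 separates the genotypes in the hypothalamus by probe A_52_P632397 and not by A_51_P446012, and Rnf207 is higher in Per3-/- eyes by both probes.

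By role, 72 of 78 genes that were listed in 12 groups had a member probe, and each was read by its brightest probe in the tissue. At an adjusted p of 0.05 the hypothalamus gave 1 gene each among 3 Wnt and TGF-beta genes (Dvl1), 6 DNA repair and apoptosis genes (Faap20) and 5 membrane traffic and lipid transfer genes (Cptp), and 0 in the other 9 groups, and the eye gave 0 in all 12. At the unadjusted p of 0.01 the largest shares in the hypothalamus were those of the membrane traffic group, with 3 of 5 (Cptp and Acap3 higher, Rer1 lower by -0.12), and of the mitochondrial group, with 3 of 6 (Park7, Aurkaip1 and Dnajc11, all lower). In the eye both groups had 1 gene past it, Cptp and Dnajc11. Of all member probes, 17.7% passed this unadjusted p in the hypothalamus and 9.39% in the eye. No group, here or below, was tested against these shares, and with so few genes in each, the counts single out no role. The mitochondrial group had a median difference of -0.10 in the hypothalamus and -0.07 in the eye, against -0.01 and 0.00419 for all probes, and 5 of 6 and 4 of 6 of its genes were below 0. Mrpl20, of the mitochondrial ribosome, differed by -0.03 and -0.09 and Atad3a by -0.04 and 0.08, and Perm1, a regulator of muscle mitochondria, was above 0 in both (0.16 and 0.20). The list does not hold Slc25a33, also a mitochondrial gene, and its median has no test.

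RNA-processing genes gave 2 of 6 in the hypothalamus (Ccnl2 higher, Pusl1 lower) and 3 of 6 in the eye (Ccnl2 and Ints11 higher, Ssu72 lower). Cilia and centrosome genes gave 2 of 6 in the hypothalamus (Nphp4 lower, Cfap74 higher), and matrix and surface genes 2 of 7 (Vwa1 lower, Mxra8 higher). Among 8 chromatin and transcription genes 1 passed (Camta1, lower), since Phf13 and Chd5 are read here by their brightest probes (-0.09 and 0.07). Ubiquitin genes gave 1 of 6 in each tissue, Klhl21 in the hypothalamus and Rnf207 in the eye. Notch genes gave 1 of 4 (Hes5), and 12 receptor and signalling genes gave 1 in the hypothalamus, Tas1r1, a subunit of the umami taste receptor (0.58, SE 0.16), and 1 in the eye (Plekhg5). Of 7 genes of sugar, NAD and coenzyme metabolism none passed in either tissue, and their differences spanned -0.20 to 0.06 (hypothalamus) and -0.13 to 0.17 (eye).

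Upstream sequence was examined for the E-box CACGTG, which reads the same on both strands, in windows of 300 bases around annotated gene starts (RefSeq, GRCm38.p6, a different build from that of the probes). Windows were found for 89 of the 126 gene names. The motif was in 11 of 123 member windows (8.94%), against 7.15% of all 32851 windows. It was in 3 of 37 windows of members that passed the unadjusted p of 0.01 in a tissue, those of Slc25a33, Acap3 and Pusl1, of which the last pair share 1 copy of the motif between divergent starts, and in 0 of the 6 windows of members that passed the adjusted p. The absence says only that these letters are not in those windows. Slc25a33 passed the unadjusted p of 0.01 in the eye and Acap3 in the hypothalamus, and neither passed the adjusted p. The 250 bases before the starts of Slc25a33 and Acap3 are shown with the motif in capitals.
Slc25a33, minus strand, chr4:149774268-149774517: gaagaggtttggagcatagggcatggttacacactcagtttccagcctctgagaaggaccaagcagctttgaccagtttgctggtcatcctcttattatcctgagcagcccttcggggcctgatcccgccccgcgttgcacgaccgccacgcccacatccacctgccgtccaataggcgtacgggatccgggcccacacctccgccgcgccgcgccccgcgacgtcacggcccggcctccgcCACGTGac
Acap3, plus strand, chr4:155891625-155891874: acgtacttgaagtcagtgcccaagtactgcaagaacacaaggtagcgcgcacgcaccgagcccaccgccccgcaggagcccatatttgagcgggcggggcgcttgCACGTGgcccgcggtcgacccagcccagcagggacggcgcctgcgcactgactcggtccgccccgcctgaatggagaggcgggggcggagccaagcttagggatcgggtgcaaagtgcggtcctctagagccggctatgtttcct
The motif begins 8 bases before the start of Slc25a33 and 145 bases before that of Acap3.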

How the data were processed

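RNA of the hypothalamic block (8 WT, 8 Per3-/-) and whole eye (7 and 7) was hybridised by the authors to 1-colour Agilent 4x44K arrays. The eye arrays of WT mouse 2 and Per3-/- mouse 1 were not analysed here. The deposited intensity values are the processed signals of Feature Extraction 10.7.1.1, background-subtracted, linear and not normalized between arrays. Log2 values that the authors deposited as well equal log2 of the processed signal over the array's 75th percentile, centred per probe and tissue.

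Each log2 processed signal was set against that array's log2 75th percentile, without spots marked uneven or as outliers, and spots of a probe were averaged. Positions are those of the hypothalamus files (mm9). Current gene names came from the accession (132 member probes), symbol (15), synonym (2) or file description (10), and 22 kept the file's name. Genotypes were compared within tissue with limma 3.58.1 in R 4.3.3, over 41174 probes, with Benjamini-Hochberg adjustment. The tissue difference used all 30 arrays with mouse as a random block (correlation 0.0591, held fixed when mice were left out). Mouse was taken as the genotype and replicate number of the sample titles. That the same number marks the same mouse in both tissues is an assumption. Other calculations used Python 3.11.15, numpy 2.4.6, pandas 2.3.3 and scipy 1.17.1. Fits were tested on simulated data.

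Same-numbered mice deviated together in the eye (r from 0.109 to 0.627 over 6 pairs) and not throughout the hypothalamus (-0.03 to 0.32 over 8), so eye values that change with a replicate block are given with it. The precision is limited by the number of arrays and, for dim probes, by background. Named were Phf13, Rnf207, Faap20, Dvl1, Park7, Cptp and AI428898, genes with an adjusted p under 0.05, the 12 further genes of lowest p per tissue, the 4 nearest to Per3 on each side, and examples of each role group. The members, the named genes, the lists and the tests were chosen with earlier results of these data known. Alternatives were the array median or quantiles as scale, normexp background correction, a background filter, kept outlier spots, the deposited log2 values, the methods' t-test, slide and replicate blocks and leaving out single arrays. Leaving out the 2 arrays high in pituitary markers was added after the data were seen.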

Additional observations from a re-analysis of the deposited data

Results flagged for a closer look

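Single mice stood apart from the rest of their group by Dixon's test for 4 of 48 groups of arrays, formed by 12 probes in both tissues and genotypes, where chance gives about 1 in 20. Park7 A_51_P229852 was 5.13 in the hypothalamus of Per3-/- mouse 2, with the next value at 5.04, and this was the 1 Per3-/- mouse inside the WT range. Phf13 A_51_P446012 was 2.21 in the hypothalamus of WT mouse 1, with the next at 1.91. Faap20 A_52_P539361 was 0.387 in the eye of Per3-/- mouse 5, with the next at 0.66. Atad3aos A_51_P167660 was -6.18 in the hypothalamus of Per3-/- mouse 4, with the next at -5.55.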

How the results depend on the processing

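In the hypothalamus the count of 7 probes at an adjusted p of 0.05 fell to 1 with the replicate block and to 4 with the slide block, and was 4 to 7 when 1 array was left out. Under the replicate block Phf13, AI428898 and Faap20 had adjusted p of 0.063, 0.0575 and 0.0919. Same-numbered hypothalamic arrays of both genotypes also shared a slide, and their deviations had r from -0.03 to 0.32 over 8 pairs. The methods' t-test with Benjamini-Hochberg adjustment gave 5 hypothalamic probes and 1 eye probe. The count of 32 at the unadjusted p of 0.01 was 25 to 34 under every alternative. A gene with probes past that p in opposite directions, Pusl1, appeared (1) under the methods' t-test, with the background filter, and in some fits without 1 array (0 to 1). In the eye the count of 1 fell to 0 with the array median, the replicate block and without the left-out names, and that of 17 fell to 7 (array median) and 10 (normexp). Normexp raised the eye median of members from 0.0334 to 0.0900, while that of all probes rose to 0.175, so the members stood at -0.0853 relative to it. The tissue difference gave 0, and 0 to 1 without 1 mouse. The cause of these changes was not tested.

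Signs turned mostly for differences near 0 or near background, and also for Vamp3 A_52_P31490 in the eye (-0.10, SE 0.09, in the main fit). In the hypothalamus these were Slc25a33 A_51_P156438 (-0.00775 with the array median, -0.0212 to 0.0269 without 1 array), Ints11 (-0.0217 to 0.00504), Ssu72 (-0.000888 to 0.0248), and under normexp Mmp23 (-0.0125), Uts2 (-0.175) and Tnfrsf9 (-0.122). In the eye they were Dvl1 A_52_P234958 (-0.0162 under normexp, -0.00847 with the replicate block, -0.0179 to 0.0625 without 1 array), Vamp3 A_52_P31490 (0.0351 under normexp) and, without 1 array, Klhl21 (-0.0362 to 0.0861), Vwa1 (-0.0176 to 0.0921), Aurkaip1 (-0.0710 to 0.00958), Uts2 (-0.176 to 0.418) and Tnfrsf9 (-0.144 to 0.354). For the tissue difference they were Rnf207 A_51_P142594 (0.957 under normexp, -0.243 to 0.0372 without 1 mouse) and Park7 (-0.107 to 0.00137 without 1 mouse).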
